A study of Mus musculus with 12 samples.

Results

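The accessible regions that rank high in BRD9-NUTM1 (BN1) bone marrow cells were set against those that rank high in cells with an MLL fusion, MLL-AF9 (MA9) or MLL-ENL (ME). The assay was ATAC-seq, which marks open chromatin by letting a transposase cut and tag the DNA it can reach. From the deposited peak list of each of 9 libraries, 3 BN1, 3 MA9 and 3 ME, the peaks of highest signal on chromosomes 1 to 19 were kept, up to the length of the shortest list, so that every list had the same length. Overlapping peaks were merged into 4515 regions. A region held by all 3 BN1 lists and none of the 6 MLL lists was called BN1-strong, and a region held by all 6 MLL lists and no BN1 list was called MLL-strong. By this definition 137 regions (3.03% of the 4515) were BN1-strong and 208 (4.61%) were MLL-strong.

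All libraries came from bone marrow of the C57BL/6 strain, as CD45.2+ cells sorted by flow cytometry at 150000 cells per sample. The tested genotype was CD45.2(+) BRD9-NUTM1, and the genotypes it was set against were CD45.2(+) MLL-AF9 and CD45.2(+) MLL-ENL. A further 3 libraries of the genotype CD45.2(+) with no fusion (Control) entered none of the definitions and served as a yardstick. The labels gave replicate numbers only, not whether replicates were separate animals, so a p-value measures the spread between these samples, which may be technical. They did not give the promoter, vector or host behind a fusion.

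BRD9 is a bromodomain subunit of a non-canonical SWI/SNF remodelling complex, and NUTM1 is a testis protein whose recruitment of the acetyltransferase p300 is known from NUT carcinoma. In MLL fusions the amino-terminal part of KMT2A, which binds chromatin at genes such as the Hoxa cluster, is joined to AF9 or ENL, partners of the elongation machinery and of DOT1L. An ATAC-seq peak can lie at a promoter, where nucleosomes are displaced at the start of transcription, or at a distal element such as an enhancer. Immediate early genes such as Fos and Jun are induced within minutes of a stimulus and of cell handling, and replication-dependent histone genes, clustered on chromosome 13 in the mouse, are transcribed in S phase.

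Some strong regions of both kinds covered promoters, and the 200 bases upstream of the annotated start of chosen genes are shown first, from RefSeq on the build GRCm38.p6. The genes were taken from lists of immediate early, heat-shock and histone genes and do not stand for the whole sets. An annotated start lay inside 22.6% of BN1-strong and 67.8% of MLL-strong regions. The bases are written 5′ to 3′ on the gene's own strand. Capitals mark matches to 4 of the 13 motifs searched, on either strand and with no overlap between matches: the CCAAT box (CCAAT, or ATTGG on the other strand), the GC box (GGGCGGGG), the TATA box (TATAAA) and the GATA motif (AGATAA). BN1-strong regions covered the promoters of Fos (chr12:85473690-85473889, plus strand), of the stress-induced factor Atf3 (chr1:191183334-191183533, minus strand) and of the inducible HSP70 genes Hspa1a (chr17:34972157-34972356, minus strand) and Hspa1b (chr17:34959239-34959438, minus strand).
Fos: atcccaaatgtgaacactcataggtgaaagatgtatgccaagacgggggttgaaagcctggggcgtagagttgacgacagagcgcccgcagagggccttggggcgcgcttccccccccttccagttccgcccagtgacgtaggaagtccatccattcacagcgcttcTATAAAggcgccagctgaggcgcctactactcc
Atf3: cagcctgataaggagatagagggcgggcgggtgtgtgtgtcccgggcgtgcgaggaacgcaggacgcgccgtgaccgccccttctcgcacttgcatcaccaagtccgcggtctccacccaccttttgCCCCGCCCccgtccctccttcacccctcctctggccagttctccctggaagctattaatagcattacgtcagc
Hspa1a: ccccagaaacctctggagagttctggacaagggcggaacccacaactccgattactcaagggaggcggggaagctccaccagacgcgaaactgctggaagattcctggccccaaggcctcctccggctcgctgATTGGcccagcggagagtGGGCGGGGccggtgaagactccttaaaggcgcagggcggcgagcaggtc
Hspa1b: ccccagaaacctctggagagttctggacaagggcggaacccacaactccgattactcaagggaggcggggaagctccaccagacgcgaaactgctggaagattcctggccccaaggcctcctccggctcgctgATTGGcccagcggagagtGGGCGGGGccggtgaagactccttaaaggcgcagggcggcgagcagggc
Of the 200 bases shown for Hspa1a and Hspa1b, 199 (99.5%) were the same. Reads from such near-identical copies can be split between them or lost, so their peaks are uncertain.

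MLL-strong regions held starts of genes of the histone cluster, shown here for the H2B genes H2bc12 (chr13:22035621-22035820, plus strand) and H2bc7 (chr13:23574208-23574407, minus strand) and for the linker histone gene H1f3 (chr13:23554832-23555031, plus strand). H2bc12 and H2bc7 each face an H2A gene, H2ac12 and H2ac7, from which they are read in opposite directions, so each sequence also holds most of the neighbour's upstream bases. The regions covered the whole of the H2bc12 and H2bc7 sequences but only the last 139 of the 200 bases of H1f3, and the first 61, with the pair of TTTATA matches, lay outside.
H2bc12: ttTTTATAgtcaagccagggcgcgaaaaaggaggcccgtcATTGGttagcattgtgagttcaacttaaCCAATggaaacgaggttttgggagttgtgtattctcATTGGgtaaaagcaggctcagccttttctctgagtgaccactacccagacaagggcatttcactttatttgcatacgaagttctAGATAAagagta
H2bc7: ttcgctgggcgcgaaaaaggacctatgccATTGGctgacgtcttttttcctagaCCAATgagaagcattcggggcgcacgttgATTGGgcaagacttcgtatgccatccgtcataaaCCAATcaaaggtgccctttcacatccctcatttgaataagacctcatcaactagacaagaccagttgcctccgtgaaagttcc
H1f3: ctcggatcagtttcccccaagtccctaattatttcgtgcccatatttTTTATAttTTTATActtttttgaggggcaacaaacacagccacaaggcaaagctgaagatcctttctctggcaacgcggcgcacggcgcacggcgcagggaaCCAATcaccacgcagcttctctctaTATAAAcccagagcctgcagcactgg
The H2bc7 sequence held 4 CCAAT boxes, the H2bc12 sequence 3, those of Hspa1a, Hspa1b and H1f3 1 each, and those of Fos and Atf3 0. Over the whole sets, given further on, a larger share of BN1-strong than of MLL-strong promoters held the box. A match is a description of the letters, not a bound site.

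The deposited lists from which the equal-length lists were cut differed in length. Of the BN1 lists, that of replicate 2 was the shortest of all and set the length, and those of replicates 1 and 3 held 4258 and 3432 peaks on chromosomes 1 to 19. There were 31968 to 33588 peaks in MA9 lists and 8546 to 9663 in ME lists. The equal-length lists therefore kept 70.7% of the peaks of BN1 replicate 1, 87.7% of those of replicate 3 and all of those of replicate 2, but 8.96 to 9.42% of the MA9 peaks and 31.2 to 35.2% of the ME peaks. The peak signal is the authors' own value, never below 200, and was used only to rank peaks within a library. The last peak kept had a signal of 297.2, 200.1 and 227.7 in the BN1 lists, with 297.1 and 227.6 for the first left out of replicates 1 and 3, and 2246 to 2433 in the MA9 and 686.7 to 766.8 in the ME lists. The lists carried no read numbers, so depth is unknown and no counting interval is given. Absence from an equal-length list says that a region had no call among the strongest peaks of that library, not that it was closed.

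The largest class of regions was common to all the lists. All 9 lists held 1628 regions (36.1%), and 500 regions (11.1%) were in 1 list only. The labelled tissue was checked on genes of haematopoietic cells. Of 18 stem and progenitor genes, 7 had a region of any kind and 3, the transcription factor genes Spi1, Cebpa and Lyl1, had one in all 9 lists, while 11 had none and Kit had 1 in a single BN1 list, 73.852 kb away. Of 13 promyelocyte granule genes 7 had a region and 2 had one in all 9 lists. Of 19 neutrophil maturation genes 0 had any. Many of these genes thus had no region, and over all genes 3933 of 20661 protein-coding genes had one. The 2 MLL fusions did not behave as 1 group. All 3 BN1 and all 3 ME lists but no MA9 list held 151 regions, against 38 held by all 3 BN1 and all 3 MA9 lists but no ME list. No BN1 and no ME list but all 3 MA9 lists held 249 regions, and 64 were in all 3 ME lists and in neither BN1 nor MA9. The MLL-strong definition asks for 6 lists and the BN1-strong definition for 3, so the 2 counts are not compared with each other.

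**Figure D1:**
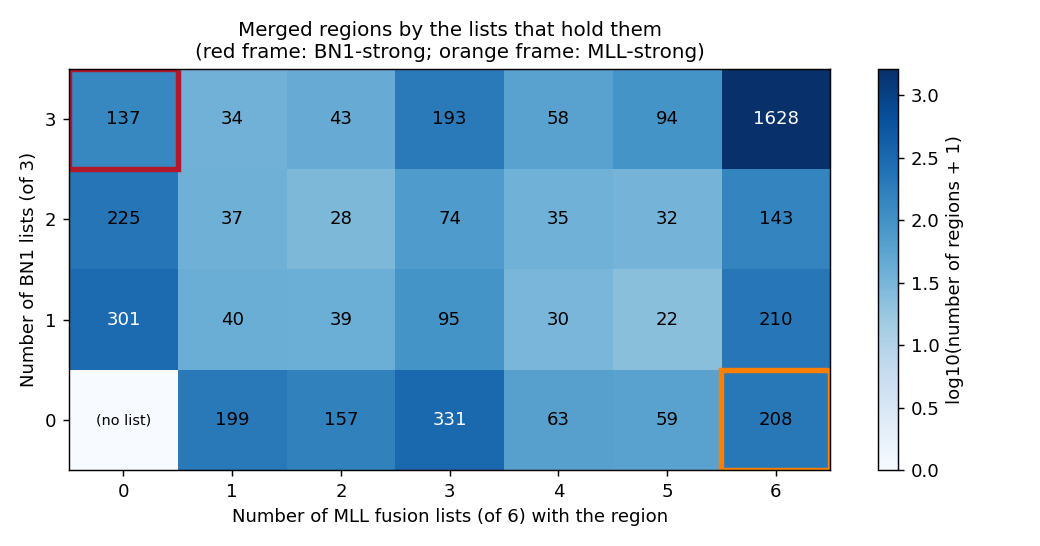
Number of merged regions by how many BN1 lists (vertical axis, of 3) and how many MLL fusion lists (horizontal axis, of 6) held them; the colour gives log10 of the number plus 1. The red frame marks the 137 BN1-strong and the orange frame the 208 MLL-strong regions, and the 1628 regions in all 9 lists are at the upper right.

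The 3 BN1 libraries were not equally alike. Replicates 2 and 3 shared 81.1% of the regions that either held, replicates 1 and 3 shared 71.0% and replicates 1 and 2 shared 67.8%. Of the regions in no MLL list, 176 were in BN1 replicates 2 and 3 but not 1, 33 in replicates 1 and 3 but not 2, and 16 in replicates 1 and 2 but not 3. Regions of BN1 replicate 1 alone included those near Mpo, Prtn3, Ctsg and Srgn, granule genes of promyelocytes. Another Mpo region of BN1 replicate 1 was also in all 3 ME lists, and another Ctsg region in all 3 MA9 lists. Another Prtn3 region was in BN1 replicates 1 and 3, all 3 MA9 and all 3 ME lists. Of the other promyelocyte granule genes, Prss57 and Calr each had a region in all 3 BN1, 3 MA9 and 3 ME lists. Gfi1 had a region in MA9 replicate 3 only. Without BN1 replicate 1 the same definitions gave 313 BN1-strong and 382 MLL-strong regions, so that library set the size of both. In the full deposited lists, of unequal length, they gave 4 and 3569.

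BN1-strong regions were narrow and mostly lay away from gene ends, and MLL-strong regions were broad and mostly lay over gene ends. Within 1 kb of an end of a protein-coding gene were 37 BN1-strong regions (27%) and 157 MLL-strong regions (75.5%), beside 80.5% of the regions in all 9 lists. More than 10 kb away were 54 BN1-strong (39.4%) and 23 MLL-strong regions (11.1%). The median width was 375 bp for BN1-strong, 1164 bp for MLL-strong and 1238 bp for regions in all 9 lists. A merged region spans every peak joined in it. MLL-strong regions and those in all 9 lists join peaks from more lists than BN1-strong regions do. Joining more lists can widen a region, and a wider region can more easily reach a gene end or a start. How much of these differences came from merging was not tested. An annotated transcription start lay inside 31 BN1-strong (22.6%) and 141 MLL-strong regions (67.8%). No start on chromosome 18 was available, so these start shares are minimums. The midpoint lay inside a gene body for 46.7% of BN1-strong and 74.5% of MLL-strong regions. Outside every gene body and more than 1 kb from a gene end lay 50 BN1-strong (36.5%) and 18 MLL-strong regions (8.65%). Peak width also moved with the group over whole lists, as given next, and its part in this contrast was not tested.

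The same order held for the lists as a whole, where each library gave 1 value. The share of the peaks kept that lay within 1 kb of a gene end was 68.8%, 64.2% and 65.6% in the BN1 libraries, 74.0%, 74.7% and 74.2% in MA9 and 75.4%, 75% and 75% in ME. No BN1 library reached the lowest MLL library. The mean was 66.2 ± 2.34% in BN1 (SD, n = 3) and 74.7 ± 0.517% in the MLL libraries (SD, n = 6), a difference of -8.5 percentage points (two-sided exact permutation test, p = 0.0238, the smallest that 84 splits of 3 against 6 libraries allow; adjusted p = 0.0357 over 6 measures). The Control mean of 69.46 ± 1.74% (SD, n = 3) lay between them. When peaks were ranked by signal per base pair instead of total signal, the difference was 1.59 points in the other direction (exact permutation p = 0.786), so the difference depended on the ranking. In the full lists of unequal length the gene-end share was 19 points and the median width 17.3 bp higher in BN1 (exact permutation p = 0.0238 for each).

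Peaks of the BN1 lists were also narrower and less often inside genes. The median width was 402, 349 and 359 bp in BN1 libraries, 1172, 1075 and 1100 bp in MA9 and 591, 595 and 576 bp in ME, so the groups did not overlap and ME lay nearer to BN1. The mean difference was -482 bp (exact permutation p = 0.0238, adjusted p = 0.0357). By their midpoint, 46.4%, 44.5% and 44.6% of BN1 peaks, 64.3 to 64.7% of MA9 peaks and 54.5 to 55.4% of ME peaks lay inside a gene body. This gave a mean difference of -14.5 points (exact permutation p = 0.0238, adjusted p = 0.0357). Peaks of 2 kb or wider made up 0.1771 ± 0.0192% of the BN1 lists (SD, n = 3) and 2.186 ± 2.13% of the MLL lists (SD, n = 6), of which MA9 averaged 4.074% and ME 0.2989%; this difference of -2.01 points had the same exact permutation p of 0.0238. Against MA9 or ME alone, 3 libraries against 3 cannot go below an exact permutation p of 0.1, and each of the 4 measures reached it. The peaks kept covered 1.22 to 1.43 Mb in BN1, against 3.48 to 3.77 Mb in MA9 and 1.95 to 2.02 Mb in ME.

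**Figure D2:**
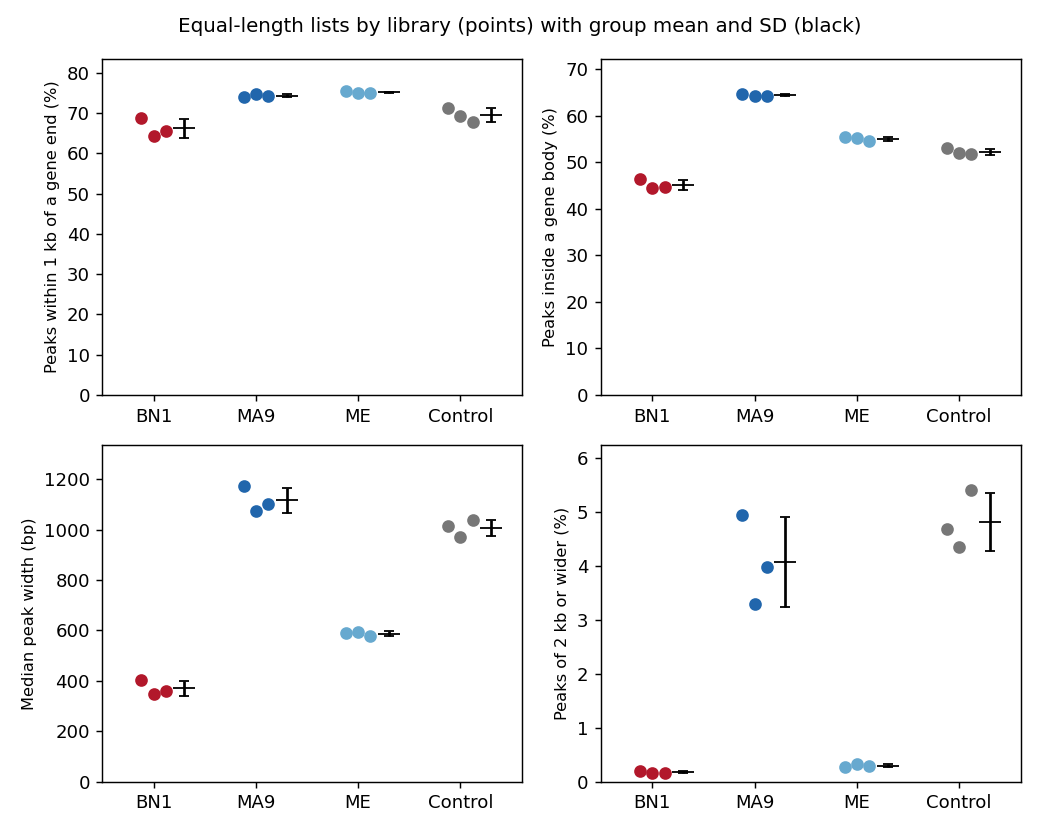
Share of peaks within 1 kb of a gene end, share inside a gene body, median peak width in bp and share of peaks of 2 kb or wider, each over the equal-length list of a library; points are libraries in the order of their replicate numbers, and black marks are the group mean with its SD (n = 3). BN1 libraries are below all MA9 and ME libraries in each panel, with ME close to BN1 for the share of wide peaks.

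For other properties of the lists no difference passed the threshold. The share of a library's peaks that overlapped a Control list was 65.88 ± 0.725% in BN1 (SD, n = 3) and 65.51 ± 0.791% in the MLL libraries (SD, n = 6), a difference of 0.373 points (exact permutation p = 0.5). The median distance to a gene end was 0.0 to 0.024 kb in BN1 and 0.0 kb in each MLL library (exact permutation p = 0.667). Of the 19 chromosomes, 0 differed in their share of peaks after adjustment (smallest adjusted p = 0.0905, exact permutation test), and 5 had an unadjusted exact p of 0.0238. Those 5 were chromosome 7 with a difference of 0.924 points, chromosome 10 with 0.587, chromosome 4 with -0.332, chromosome 13 with -0.465 and chromosome 14 with -0.249.

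The BN1-strong regions of highest rank lay near Cdh5, the gene of vascular endothelial cadherin, on chromosome 8. Cdh5 was the nearest gene of 3 BN1-strong regions, more than any other gene. The first (chr8:104076687-104077524) ranked 519, 491 and 941 among the peaks kept of BN1 replicates 1, 2 and 3 and lay 24.089 kb from the gene. The middle one (chr8:104091602-104092649), 8.964 kb away, ranked 1255, 421 and 817, and that nearest to the gene (chr8:104097484-104098622), 2.991 kb away, ranked 1369, 439 and 830. BN1 replicate 2 placed each of them highest, and BN1 replicate 1 placed the 2 nearer ones lowest. In the full deposited lists the first region was called in all 3 MA9, all 3 ME and 2 Control libraries, and the nearest in 2 MA9, 2 ME and no Control library. Of the 15 endothelial and stromal genes examined, the other one with any region was Mepe, an osteocyte gene whose region was in all 3 BN1 and 2 ME lists, and Pecam1, Kdr, Tek, Col1a1 and Cxcl12 had none. Genes of this list with a peak within 50 kb numbered 2 in each BN1 library, 0 in each MA9 library and 0, 2 and 2 in the ME libraries. The part of such cells in the result was not tested.

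Other highly ranked BN1-strong regions lay inside or between genes. A region inside Gse1, nearest to the replication gene Gins2 (chr8:120563793-120564475), ranked 759, 915 and 593. A region 9.202 kb from Btg2, an antiproliferative gene (chr1:134065179-134065663), ranked 1109, 693 and 627 in BN1, and Control libraries held it at 1681, 1942 and 1587. A region 0.339 kb from an end of Slc12a3, the renal sodium chloride cotransporter (chr8:94365391-94365883), ranked 1008, 795 and 1007 in BN1 and 2220 to 2629 in Control. A region inside Map3k4, a kinase of the stress-activated pathway (chr17:12249839-12250348), ranked 2186, 461 and 704 in BN1 and was called in no full MLL or Control list. It was 1 of 2 BN1-strong regions (1.46%) called in no full MLL list; the other lay 25.306 kb from Zfp64. Regions at Pcbp3, an RNA-binding protein gene, and Tle1, a corepressor gene, ranked 910 to 1474 and 1071 to 1348. Those nearest to Incenp, Gja1, Unc93a2, Rab20 and Marveld2 followed. Kdm6b, a histone H3K27 demethylase gene, and Septin9 each had 2 BN1-strong regions and were named after their values were seen.

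Most BN1-strong regions were also called in the MLL cells, below the strongest peaks. Of the 137, 111 (81.0%) were called in all 6 full MLL lists and 122 (89.1%) in all 3 full Control lists. No ME library called 13 (9.49%) of them. Among the equal-length Control lists, all 3 held 27 BN1-strong regions (19.7%) and 74.5% were in none. MLL-strong regions were followed in the BN1 lists in the same way. Of the 208, 96 (46.2%) were called in no full BN1 list, 93 (44.7%) in 1 and 19 (9.13%) in 2. All 3 equal-length Control lists held 64 MLL-strong regions (30.8%) and none held 118 (56.7%). Since the BN1 lists are short, a missing call there reaches less deep than one in an MLL list.

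**Figure D3:**
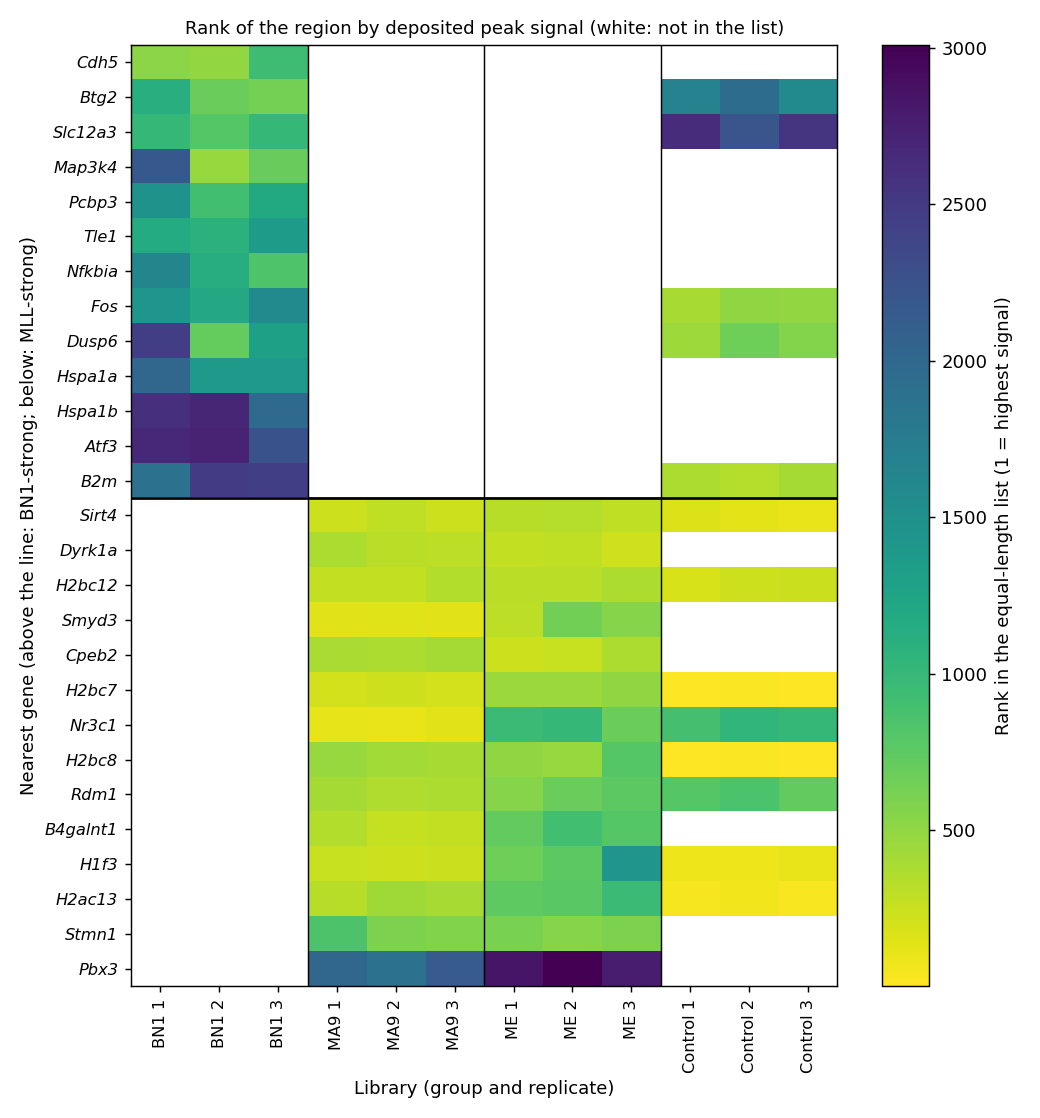
Rank by deposited peak signal, 1 being the highest, of 13 BN1-strong regions (above the line) and 14 MLL-strong regions (below it) in each library; white means that the region was not in that equal-length list, which the definitions fix for BN1, MA9 and ME. Where a gene had several regions the best ranked is shown. A Control rank is that of the best ranked Control peak overlapping the region, which can reach beyond it. The equal-length Control lists held the Fos, Dusp6 and B2m regions and the histone regions, and none of those near Cdh5, Map3k4 or Pbx3.

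More immediate early genes had a BN1-strong region than genes of any other list examined. Of 22 such genes, 18 had a region of any kind, 6 had a BN1-strong region (Fos, Jun, Junb, Atf3, Btg2 and Nfkbia) and 0 had an MLL-strong region. For comparison, 132 (3.36%) of the 3933 genes nearest to any region had a BN1-strong region. Genes with several regions, such as Fos and Btg2, have more chances of a strong one. The share over all genes does not allow for this. The Fos promoter region (chr12:85473471-85474025) ranked 1429, 1195 and 1569 in BN1, was below the peaks kept of every MLL library, and ranked 390, 495 and 489 in Control. The Control peaks that overlapped it therefore ranked higher than the BN1 peaks. As for every Control rank given here, such peaks can reach beyond the region. A second Fos region, 4.918 kb upstream of the gene span, ranked 2877, 2587 and 2320 in BN1. The Nfkbia region, 0.338 kb from this gene of an NF-kB inhibitor, ranked 1627, 1130 and 832 in BN1 and was in no equal-length Control list. The Atf3 promoter region ranked 2668, 2715 and 2247, near the end of the BN1 lists. A Junb region 0.095 kb from the gene ranked 1305, 2769 and 2904 in BN1, and the Control peaks that overlapped it ranked 85, 89 and 1319. When peaks were merged over all 12 lists, Control included, Junb had no BN1-strong region. Its call thus depended on where peaks were split, and its Control ranks may be those of peaks that reach further. The region assigned to Jun, at 2996, 1384 and 1603, lay 162.986 kb away. All of these Fos, Jun, Junb, Atf3 and Nfkbia regions were called in all 6 full MLL lists.

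The count of immediate early genes rests on a few regions near the end of the lists. With 2000 peaks per library 3 remained (Fos, Btg2 and Nfkbia) and with 1000 peaks 1 (Fos). Ranked by −log10 p the 5 genes were Fos, Dusp1, Btg2, Btg1 and Nfkbia, and ranked by signal per base pair the 4 were Klf2, Btg2, Btg1 and Nfkbia. Immediate early genes that were nearest to a peak within 50 kb numbered 18, 16 and 15 in the BN1 equal-length lists. There were 15 to 16 in MA9 and 16 in each ME library, so the groups overlapped. The counts of strong regions had no such limit of distance.

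The 31 BN1-strong regions that held a start included those of Dusp6, Hspa1a, Hspa1b, B2m, Rnf13 and Grn. The Dusp6 promoter region, of a phosphatase that acts on ERK kinases, ranked 2451, 711 and 1299 in BN1 and 446, 670 and 555 in Control. The Hspa1a region ranked 2015, 1389 and 1394 and the Hspa1b region 2591, 2693 and 1988 in BN1. No equal-length Control list held either, and all 3 full Control lists called both. Of 17 heat-shock and chaperone genes, 13 had a region and these 2 near-identical copies were BN1-strong, while 0 were MLL-strong. The B2m region, at the gene of the light chain of MHC class I, ranked 1892, 2488 and 2458 in BN1 and 373, 335 and 405 in Control. B2m was the 1 of 18 housekeeping genes with a BN1-strong region. A region 3.229 kb from Dot1l, the H3K79 methyltransferase that MLL fusions recruit, ranked 1537, 2213 and 2278. The Rnf13 and Grn regions had best ranks of 1414 and 1377.

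Histone genes were near MLL-strong regions. Of 62 replication-dependent and linker histone genes, 24 had a region of any kind, 10 had an MLL-strong region and 0 had a BN1-strong region, beside 207 (5.26%) MLL-strong among the 3933 genes with any region. The 10 were H1f3, H2ac13, H2bc3, H2bc7, H2bc8, H2bc11, H2bc12, H2bc14, H3c7 and H4c3. The H2bc12 region (chr13:22034977-22036839) ranked 277, 277 and 348 in MA9, 316, 307 and 367 in ME and 185, 227 and 246 in Control, and no full BN1 list called it. The H2bc7 region ranked 201, 233 and 204 in MA9 and 448, 448 and 495 in ME. The Control peaks that overlapped it ranked 6, 13 and 6. The same Control peaks also overlapped the H2bc8 region, so these are not ranks of the H2bc7 region alone. The H1f3 region ranked 249, 232 and 241 in MA9, 665, 763 and 1447 in ME and 72, 75 and 99 in Control. For these 3 regions every MA9, ME and Control library had an overlapping peak among its upper 1447 peaks, and no BN1 library called the region anywhere.

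Counted by library, 8, 4 and 5 histone genes had a peak within 50 kb among the strongest in BN1, 20 to 21 in MA9, 22 to 23 in ME and 25 to 27 in Control. The BN1 libraries thus held fewer histone gene peaks than every other library. The count of MLL-strong histone genes depended on how peaks were ranked: it was 3 by −log10 p and 0 by signal per base pair. No histone gene had a BN1-strong region under either ranking.

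**Figure D4:**
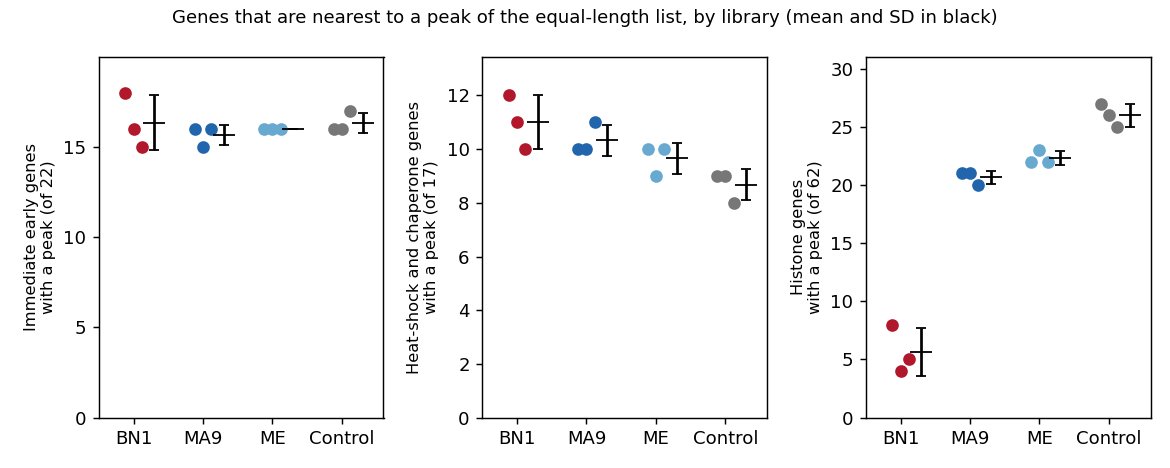
Number of immediate early genes (of 22), heat-shock and chaperone genes (of 17) and histone genes (of 62) that are nearest to a peak of the equal-length list, by library. Only peaks within 50 kb of the gene are counted. Points are libraries in the order of their replicate numbers, and black marks the group mean with its SD (n = 3). The histone panel shows 4 to 8 genes in BN1 against 20 to 23 in the MLL libraries, while the other panels overlap.

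Of the other MLL-strong regions, the highest ranked lay over Sirt4, a mitochondrial sirtuin gene (chr5:115489170-115490819), at 236, 287 and 234 in MA9, 326, 341 and 290 in ME and 106 to 156 in Control. One BN1 library called it in its full list. A region 2.607 kb from Dyrk1a, a protein kinase gene (chr16:94698126-94699363), ranked 367, 309 and 298 in MA9 and 278, 292 and 217 in ME and was called in no BN1 and no Control library. Regions inside Smyd3, a lysine methyltransferase gene, and Cpeb2, a translation regulator gene, were in no equal-length Control list. In the full lists 2 Control libraries called the Smyd3 region, and 3 Control libraries and 1 BN1 library called the Cpeb2 region. The Smyd3 region ranked 135 to 143 in MA9 and 298 to 645 in ME. The Cpeb2 region ranked 374 to 404 in MA9 and 225 to 371 in ME. The region inside Nr3c1, the glucocorticoid receptor gene, ranked 107, 102 and 140 in MA9 and 958, 1008 and 674 in ME. Regions at Rdm1, Pecr, B4galnt1, H2ac13, Stmn1 and Sqstm1 completed the first 15, with best MLL ranks of 271 for B4galnt1 and 361 for Rdm1. Pecr had 2 MLL-strong regions. Gse1 held an MLL-strong region as well as the BN1-strong one described above.

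Some known targets of MLL fusions had a region, and most had none. Of 18 Hox cofactor and target genes 5 had one, beside 3933 of all 20661 protein-coding genes. Of these 5, 1, the Hox cofactor gene Pbx3, had an MLL-strong region, beside 5.26% of all genes with a region. The Pbx3 region ranked 2015, 1883 and 2148 in MA9 and 2844, 3001 and 2782 in ME and was called in no BN1 library. Smarcc1, a SWI/SNF subunit gene, was the 1 of 11 fusion partner and complex genes with a region that was MLL-strong, and Rpl10a the 1 of 28 ribosomal protein genes. Of the 11 Hoxa genes 4 had a region and 0 a strong one of either kind. These counts are too small to be read against the share over all genes. The Hoxa9 region (chr6:52221166-52222731) was in no BN1 list, ranked 749, 817 and 985 in MA9, and was in 1 of the 3 ME lists at 3003, and a region 0.089 kb from Cdk6 was in all 3 MA9 lists at 223, 149 and 162 and in no other. These 2 genes were named after their values were seen. The lists of stem and progenitor, B, T, NK, monocyte, dendritic, erythroid, megakaryocyte, mast cell, neutrophil and promyelocyte granule genes had 0 members in either strong set. None of these lists had more than 7 genes with any region, and the mast cell and neutrophil lists had 0. Their counts are too small to be read against the 3.36% and 5.26% of all genes with a region. Of the 18 genes silent in blood, 0 had any region.

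Promoters under the strong regions differed in their letters. For 250 bases upstream of starts that lay inside a region, 39 promoters of 36 genes were available for BN1-strong and 174 promoters of 154 genes for MLL-strong regions, with none on chromosome 18. The median GC content was 58.4% for BN1-strong and 65.6% for MLL-strong promoters, beside 64.0% for regions in all 9 lists and 56.0% for all 20084 promoters. The GC box was in 8 BN1-strong (20.5%) and 69 MLL-strong promoters (39.7%), beside 40.8% in regions of all 9 lists and 22% of all promoters. The CCAAT box was in 24 BN1-strong (61.5%) and 69 MLL-strong promoters (39.7%), beside 48.5% in regions of all 9 lists and 35.3% of all promoters. The cyclic AMP response element (TGACGTCA) was in 2 BN1-strong (5.13%) and 3 MLL-strong promoters (1.72%), beside 3.59% in regions of all 9 lists and 1.98% of all promoters. Alternative starts of 1 gene share bases, and these shares are descriptions without a test.

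Regions in all 9 lists could be compared by their rank. Within each library the 1628 regions were ranked and turned to normal scores, and limma was fitted over all of them with Benjamini-Hochberg adjustment. The test called 953 regions (58.5%) at an adjusted p under 0.05, of which 554 (34.0% of all) ranked higher and 399 (24.5%) lower in BN1 than in the mean of MA9 and ME. Regions higher in BN1 had a median width of 1071 bp and 75.6% were at a gene end, and those lower in BN1 had 1536 bp and 82.5%. Ranked by signal per base pair, 294 of 930 shared regions passed, 138 higher and 156 lower, and ranked by −log10 p 588 of 1747 passed, 290 higher and 298 lower. The excess of higher calls therefore did not hold under either other ranking.

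The lowest p among the regions higher in BN1 was that of a region 0.472 kb from Junb, which encodes a subunit of AP-1 (chr8:84979220-84980552). It ranked 91, 65 and 90 in BN1, 1002, 987 and 951 in MA9 and 624, 618 and 638 in ME. No BN1 rank overlapped an MLL rank, with a difference of 1.46 score units (SE 0.0645, limma adjusted p = 1.03e-05). Next by p among the higher regions came those near Sorcs1, Cntnap5a, Trim8, Grk2, Mob3a, Lrrc25, Gm29667, Tmtc2 and Cdk9. Trim8, a ubiquitin ligase gene, held a region inside the gene at 250, 177 and 210 in BN1, against 1073 to 1195 in MA9 and 1681 to 1882 in ME (difference 1.74). The region near Cdk9, the kinase of the elongation factor P-TEFb, ranked 878, 750 and 935 in BN1, against 1936 to 2118 in MA9 and 1904 to 1952 in ME. The Cntnap5a region lay 1780.364 kb from that gene, the Sorcs1 region 463.285 kb away and the Tmtc2 region 50.423 kb away; these 3 and that near Gm29667 did not pass when ranked by signal per base pair, and Mob3a turned to -0.0845 there.

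The lowest p among the regions lower in BN1 was at H1f2, a linker histone gene (chr13:23738668-23740278). It ranked 1917, 2283 and 2104 in BN1, against 59, 46 and 61 in MA9 and 60, 67 and 97 in ME, a difference of -3.06 score units (SE 0.0875, limma adjusted p = 6.42e-07). Next by p among the lower regions came those near Zfp524, Bad, Ptma, Pex2, Ptpdc1, Pnrc1, Cic, Phf12 and Gm34296. The region at Bad, a proapoptotic BCL2 family gene, ranked 2695, 2957 and 2796 in BN1, against 532 to 599 in MA9 and 976 to 1127 in ME. The region at Pex2, a peroxisome gene, ranked 2402 to 2454 in BN1, against 1053 to 1156 in MA9 and 676 to 971 in ME. Of the regions named, those of Zfp524, Ptma, Ptpdc1, Pnrc1 and Phf12 had a positive difference when ranked by signal per base pair, past the threshold for Ptma, Ptpdc1 and Phf12. Ptma, the prothymosin gene, whose region is 4370 bp wide, moved to 1.83 there, beside -1.33 by total signal. Of the 20 regions named by lowest p, 12 were in all 9 lists under that ranking and 1 kept its direction and call there, while by −log10 p 12 of 18 kept both.

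Among shared regions the histone genes went one way and the immediate early genes both ways. For comparison, 34.0% of all shared regions were higher and 24.5% lower in BN1. All 4 histone gene regions in all 9 lists, at H1f2, H2bc4, H3c1 and H4c8, were lower in BN1, with a median difference of -1.23 beside 0.0849 over all shared regions; 3 of 4 passed by −log10 p and 2 of 2 by signal per base pair, all in this direction. H2bc4 ranked 581, 969 and 925 in BN1, against 128 to 170 in MA9 and 140 to 183 in ME. Of 16 immediate early gene regions, 9 were higher, 5 lower and 2 not past the threshold, with a median of 0.336; by −log10 p it was 9 higher and 1 lower of 16, and by signal per base pair 2 higher and 0 lower of 5. Higher regions besides Junb included one 17.902 kb from Fos, at 470, 400 and 371 in BN1, against 1354 to 1534 in MA9 and 1166 to 1518 in ME (limma adjusted p = 0.000115), and one of Klf6 at 555, 289 and 255 in BN1, against 926 to 1129 in MA9 and 593 to 701 in ME. Lower regions included one at Dusp1, a phosphatase gene acting on MAP kinases, at 2286, 2020 and 2498 in BN1, against 64 to 232 in MA9 and 151 to 197 in ME (difference -2.83, limma adjusted p = 2.4e-05). For 4 of the regions called, near Btg2 and Zfp36, over Ier2 (chr8:84661497-84663213) and over Junb (chr8:84977223-84979036), MA9 and ME lay on opposite sides of BN1 by mean percentile. The Zfp36 region was among the lower ones by the deposited signal and a Zfp36 region was among the higher ones by −log10 p and by signal per base pair, so no direction is given for it.

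Of the other lists, housekeeping genes had 9 shared regions with 2 higher and 6 lower in BN1 (median -1.03), which turned to 3 higher and 2 lower by −log10 p. The region of Eef1a1, the elongation factor of translation, ranked 1391, 2321 and 2023 in BN1, against 412 to 436 in MA9 and 499 to 623 in ME. Ribosomal protein genes had 12 regions with 5 higher and 1 lower, while 1 of 14 passed by −log10 p and 0 of 2 by signal per base pair. Heat-shock genes had 7 regions with 0 higher and 2 lower, Hsp90aa1 and Hspe1, but 2 higher and 0 lower of 5 by signal per base pair. Fusion partners and complexes had 6 regions with 1 higher, 2 lower and 3 not past the threshold, and by −log10 p 1 higher and 2 lower of 6, though not the same genes. Ell, an elongation factor gene, was higher at 34, 40 and 47 in BN1, against 132 to 155 in MA9 and 68 to 83 in ME. Ep300, the gene of p300, was lower at 1287, 2443 and 2030 in BN1, against 240 to 296 in MA9 and 345 to 418 in ME. Smarca4, a SWI/SNF ATPase gene, was lower at 910, 1874 and 1358 in BN1, against 727 to 782 in MA9 and 542 to 633 in ME (limma adjusted p = 0.00455), and was not called by −log10 p.

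**Figure D5:**
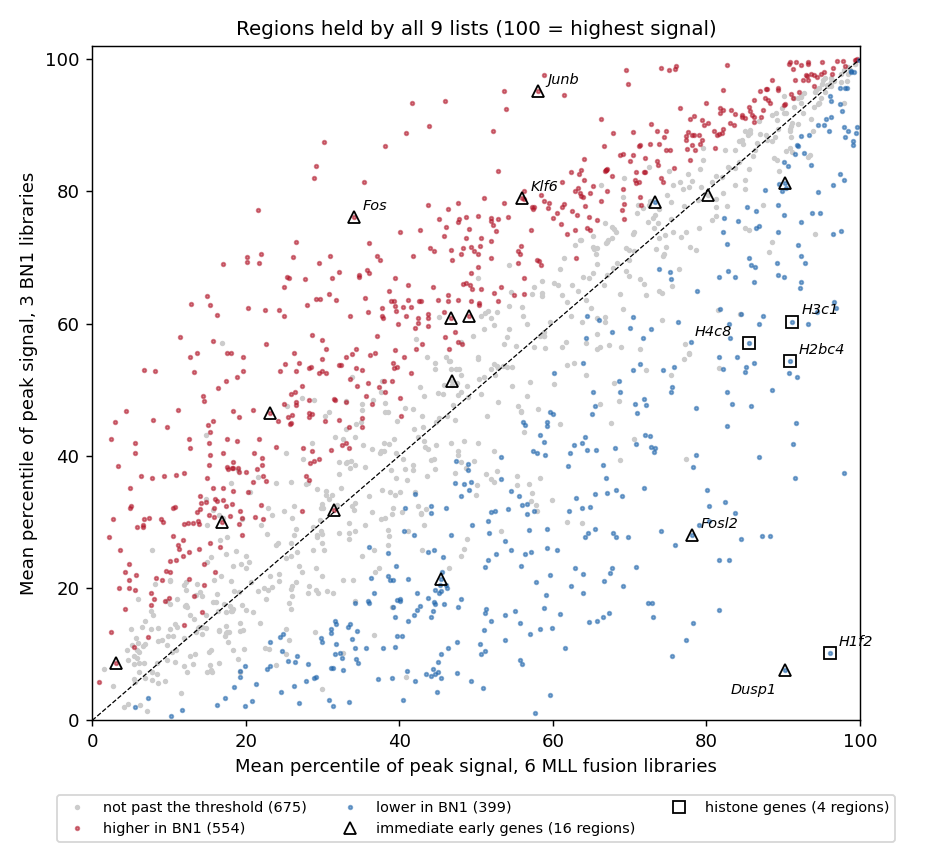
Mean percentile of peak signal of the 1628 regions in all 9 lists, in the 3 BN1 libraries (vertical axis) and the 6 MLL fusion libraries (horizontal axis), where 100 is the highest signal. Red points ranked higher in BN1 (554), blue points lower (399) and grey points did not pass the limma threshold (675); squares are histone gene regions, all below the dashed line of equality, and triangles immediate early gene regions, on both sides of it.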

How the data were processed

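Of 12 ATAC-seq libraries, 9 were compared and 3 (Control) described. Per the submitters' processing notes, the build was GRCm38 (mm10) and the software deepTools 3.5.1, Picard 3.2.0, Bowtie2 2.5.4 and Genrich of an unnamed version. Their roles, options and any pooling are not given in the sources used here. The authors deposited 1 peak list per library with a peak signal that was never below 200, read here as Genrich's area under its significance curve, which grows with peak width, and with the −log10 p of each peak. No scaling of the deposited columns between libraries is given, so both were used for ranks within a library. The depth is unknown.

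Lists were cut to the length of the shortest and merged at 1 bp or more of overlap. A peak or region counted as inside a gene body if its midpoint lay in a gene span. Genes were the 20661 protein-coding spans of a RefSeq table of GRCm38.p6, which gives no strand or exons; distances run to the nearest end of a span, and starts came from its promoter table. Library values were compared by two-sided exact permutation tests over the 84 splits (scipy 1.17.1) and ranks of the shared regions by limma 3.58.1 in R 4.3.3, with MA9 and ME as separate groups; the fit was tested on simulated data. Text names the 15 best ranked regions of each strong set, the 10 best at gene ends, genes with 3 or more regions, up to 4 members of each gene list and the 10 shared regions of lowest p in each direction; other genes were named after their values were seen, and some items that the rule names are not reported here. Members and lists were chosen with earlier results of these data known. Rankings by −log10 p and by signal per base pair, list lengths, overlap, summit windows, replicates left out and a replicate block were tried as alternatives.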

Additional observations from a re-analysis of the deposited data

Results flagged for a closer look

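Of the shares of peaks by chromosome, that of chromosome 16 moved in opposite directions against the 2 MLL fusions. It averaged 2.8% in the BN1 lists, which was -0.244 percentage points against MA9 and 0.0886 points against ME. Every BN1 library lay below every MA9 library and above every ME library. The difference between the 2 contrasts was not tested. Of 25 measures checked over the 6 MLL libraries for a library far from the others, 0 had one.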

How the results depend on the processing

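The counts of strong regions changed most with list length. The full deposited lists gave 4 BN1-strong and 3569 MLL-strong regions, 1000 peaks per library gave 77 and 78, and asking for all but 1 library of one group and at most 1 of the other gave 433 and 499. Ranked by signal per base pair, 78 regions were MLL-strong. Leaving out 1 library gave 141 to 313 BN1-strong and 211 to 382 MLL-strong regions, the upper values without BN1 replicate 1. Immediate early genes with a BN1-strong region numbered 0 in full lists, 3 at 2000 peaks and 1 at 1000 peaks. Histone genes with an MLL-strong region numbered 22 in full lists, 6 at 1000 peaks, 3 by −log10 p, 0 by signal per base pair and 17 when every gene with an end within 1 kb was counted. The cause of these changes was not tested, beyond the lists being longer or shorter.

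Ranked by signal per base pair, the gene-end share differed by 1.59 points and the share of peaks of 2 kb or wider by -0.642 points (exact permutation p = 0.0714). In full lists the differences were 19 points for the gene-end share, 17.3 bp for width, -3.01 kb for distance, -0.0853 points for wide peaks and 21.8 points for overlap with Control, and 10 chromosomes passed. Overlap with Control was -1.27 points at 1000 peaks, -1.25 by −log10 p, -0.31 against MA9 alone and -0.0129 without BN1 replicate 3. Against MA9 alone the 4 differences that passed were -8.09 points, -746 bp, -19.2 points and -3.9 points, and against ME alone -8.91 points, -217 bp, -9.84 points and -0.122 points, where p cannot go below 0.1. Leaving out 1 library gave -9.79 to -7.52 points for the gene-end share, -537 to -417 bp for width, -15.6 to -13.5 points for gene bodies, -2.39 to -1.46 points for wide peaks and -0.0129 to 0.707 points for overlap with Control; without a BN1 library the exact p cannot go below 0.0714.

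Replicate numbers were shared between groups, but same-numbered libraries did not deviate together in their ranks of the shared regions (correlations from -0.0392 to 0.0598). The labels do not say whether a number stands for a shared batch, and this was not tested. With a replicate block the differences stayed -8.5 points, -482 bp, -14.5 points and -2.01 points, with an exact p of 0.0741, the smallest that 27 arrangements allow, and limma called 900 shared regions.

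Limma called 591 of 1031 shared regions at 2000 peaks, 260 of 453 at 1000 peaks, 588 by −log10 p, 294 by signal per base pair and 576 with MA9 and ME as 1 group; leaving out 1 library gave 837 to 1140. By signal per base pair the differences turned to -0.0845 for Mob3a, 0.645 for Zfp524, 1.83 for Ptma, 0.459 for Ptpdc1, 0.306 for Pnrc1 and 1.12 for Phf12, and by −log10 p to 0.11 for Zfp524, 0.0337 for Pnrc1 and 0.182 for Phf12.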
